A study of Mus musculus with 28 samples.

Results

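The COMPASS family of complexes methylates lysine 4 of histone H3, and 10 of its genes are described here by the chromatin mapped over them in mouse embryonic stem cells. They are the 6 genes of the catalytic subunits, Kmt2a, Kmt2b, Kmt2c, Kmt2d, Setd1a and Setd1b, and the 4 genes of the core subunits that every such complex shares, Wdr5, Ash2l, Rbbp5 and Dpy30. They were chosen by name, 10 of 21887 protein-coding genes on the assembled chromosomes, and for each the gene body and 50 kb either side were examined. All 10 were found in the RefSeq gene table, and none of the windows overlapped another.

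The libraries came from the male line ES-E14TG2a (E14), grown in serum medium with LIF. The protocol also describes a version with GSK and MEK inhibitors without saying which libraries it served. Targets were H3.3, the H3 variant deposited outside replication, H3K27ac and H3K122ac, which are acetylations of histone H3, and a control lacking primary antibody. The method was CUT&RUN, in which an antibody brings a nuclease to its target in isolated nuclei. For each target there were 2 wildtype libraries, 1 each of H3f3a_AA_H3f3b_WTWT, H3f3a_WTWT_H3f3b_AA and H3f3a_WTA_H3f3b_AA, and 2 of H3f3a_AA_H3f3b_WTA, which came from 2 clones. The letter A marks alleles of the H3.3 genes H3f3a and H3f3b, and the series title names the substitution K122A. The values used are the positions of consensus regions, 1 list for H3.3 (5446 regions) and 1 for H3K27ac (57857 regions), with nothing per library. Regions of H3K122ac and of the control were not analysed here, and which genotypes entered each list is not given in the sources used here. Wildtype and mutant cells could therefore not be compared, the depth is unknown, and no count below has a replicate error or a test. The nuclease fusion and the stop buffer differed between the H3.3 and H3K27ac libraries, so the lengths of the lists do not compare amounts of chromatin. The H3K27ac regions followed the labelled cell type, lying at an end of 6 of 6 embryonic stem cell markers (Pou5f1, Sox2, Nanog, Esrrb, Klf4 and Zfp42) and of 0 of 10 markers of other lineages. The H3.3 regions did not, lying at an end of 1 of the 6 and 8 of the 10. Over all protein-coding genes the shares were 38.8% for H3K27ac and 16.0% for H3.3. The H3.3 count at the stem cell markers was thus near the share over all genes.

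Methylation of H3K4 accompanies promoters and enhancers that are active or poised. The paired enzymes divide the work. SETD1A and SETD1B place most trimethylation at active promoters, KMT2A and KMT2B act at selected promoters, including those of developmental genes, and KMT2C and KMT2D place monomethylation at enhancers. Each enzyme works on a platform of WDR5, RBBP5, ASH2L and DPY30. These complexes are known in embryonic stem cells for keeping developmental promoters ready for later use and for supporting self-renewal. H3K27ac, the mark mapped here, is found at active promoters and enhancers.

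Promoter sequences show where the 2 kinds of region meet the start of transcription. RefSeq sequences of assembly GRCm38.p6, whose primary chromosomes carry mm10 coordinates, run from 250 bases before to 50 after a start site. They were matched for 7 of the 10 genes, with 10 start sites in all. Kmt2b, Setd1b and Ash2l were not matched. The 6 below were picked because they span the arrangements seen, from a promoter inside both kinds of region to promoters inside neither. Capitals mark bases that lie inside an H3.3 region, and all are written 5′ to 3′ on the strand of the gene.
Rbbp5: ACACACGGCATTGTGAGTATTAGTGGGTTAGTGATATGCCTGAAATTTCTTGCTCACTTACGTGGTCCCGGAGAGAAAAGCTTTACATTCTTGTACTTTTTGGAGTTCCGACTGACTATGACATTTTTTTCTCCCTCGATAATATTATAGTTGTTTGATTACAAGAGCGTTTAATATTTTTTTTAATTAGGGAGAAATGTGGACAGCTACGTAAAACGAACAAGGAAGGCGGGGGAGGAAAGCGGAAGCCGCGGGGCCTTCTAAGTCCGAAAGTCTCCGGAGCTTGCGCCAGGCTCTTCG
Setd1a: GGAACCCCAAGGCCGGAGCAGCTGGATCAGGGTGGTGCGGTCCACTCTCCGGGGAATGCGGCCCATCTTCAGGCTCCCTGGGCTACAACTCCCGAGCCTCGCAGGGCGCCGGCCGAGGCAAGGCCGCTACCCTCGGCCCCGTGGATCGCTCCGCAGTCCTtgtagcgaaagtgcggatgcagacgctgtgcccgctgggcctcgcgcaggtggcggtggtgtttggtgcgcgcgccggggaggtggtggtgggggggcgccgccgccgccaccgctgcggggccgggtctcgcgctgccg
Kmt2c: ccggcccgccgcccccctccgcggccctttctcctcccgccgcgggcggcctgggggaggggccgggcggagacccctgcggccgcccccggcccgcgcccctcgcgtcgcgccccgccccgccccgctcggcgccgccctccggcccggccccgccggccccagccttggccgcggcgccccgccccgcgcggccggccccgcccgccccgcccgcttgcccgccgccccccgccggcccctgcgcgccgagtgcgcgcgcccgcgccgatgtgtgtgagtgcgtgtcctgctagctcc
Wdr5: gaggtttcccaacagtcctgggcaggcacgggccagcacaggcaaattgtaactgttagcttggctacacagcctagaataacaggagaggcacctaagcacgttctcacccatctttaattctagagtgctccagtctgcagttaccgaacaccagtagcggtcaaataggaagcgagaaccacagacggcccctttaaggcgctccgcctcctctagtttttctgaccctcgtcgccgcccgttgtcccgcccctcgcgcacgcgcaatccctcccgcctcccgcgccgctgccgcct
Dpy30 inner site: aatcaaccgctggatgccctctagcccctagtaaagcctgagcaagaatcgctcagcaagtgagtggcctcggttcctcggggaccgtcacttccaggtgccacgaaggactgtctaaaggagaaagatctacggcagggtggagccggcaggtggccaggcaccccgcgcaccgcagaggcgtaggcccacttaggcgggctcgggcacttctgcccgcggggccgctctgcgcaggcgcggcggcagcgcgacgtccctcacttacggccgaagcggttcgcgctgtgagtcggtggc
Dpy30 outer site: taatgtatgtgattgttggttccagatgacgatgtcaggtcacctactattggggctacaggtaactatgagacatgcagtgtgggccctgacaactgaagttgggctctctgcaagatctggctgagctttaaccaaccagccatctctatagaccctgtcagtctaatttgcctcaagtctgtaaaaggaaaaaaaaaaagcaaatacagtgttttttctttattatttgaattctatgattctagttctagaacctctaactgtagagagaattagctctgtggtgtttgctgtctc

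In genome order these are chr1:132477117-132477416 (plus strand) for Rbbp5, chr7:127777139-127777438 (plus) for Setd1a, chr5:25498734-25499033 (minus) for Kmt2c and chr2:27514897-27515196 (plus) for Wdr5. The inner and outer sites of Dpy30 are chr17:74316384-74316683 and chr17:74323895-74324194, both on the minus strand. All 300 bases of the Rbbp5 promoter lay inside an H3.3 region and inside an H3K27ac region. At Setd1a 160 of 300 bases lay inside an H3.3 region and 0 inside H3K27ac. The Wdr5 promoter and the inner Dpy30 promoter lay wholly inside H3K27ac and held no base of H3.3, whereas the Kmt2c and outer Dpy30 promoters held no base of either.

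Across the set, H3K27ac was present at nearly every gene and H3.3 at fewer. An end window here reaches 1 kb to each side of an annotated end, and a region counted as at the end if it touched that window by 1 bp. H3K27ac lay at an end of 9 of the 10 genes, where 38.8% of all protein-coding genes had it. H3.3 lay at an end of 4, Kmt2b, Kmt2c, Setd1a and Rbbp5, against 16.0% of all genes. Both lay at an end of Kmt2b, Setd1a and Rbbp5, which is 3 of 10, against 10.7%. Kmt2c had H3.3 alone, the other 6 had H3K27ac alone, and none had neither. Every one of these genes is longer than 20 kb, from 20.2 kb for Kmt2b to 227 kb for Kmt2c, and a long gene has more room for regions. Among the 10039 protein-coding genes of 20 kb or more the shares at an end were 42.8% for H3K27ac, 16.4% for H3.3 and 10.9% for both. Inside the gene body, H3K27ac was present in 10 of 10, against 48.4% of all genes and 63.1% of the long ones. H3.3 was present in the body of 2, Setd1b and Rbbp5, against 16.1% and 18.8%, and the region in Rbbp5 was the one at its end.

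**Figure D1:**
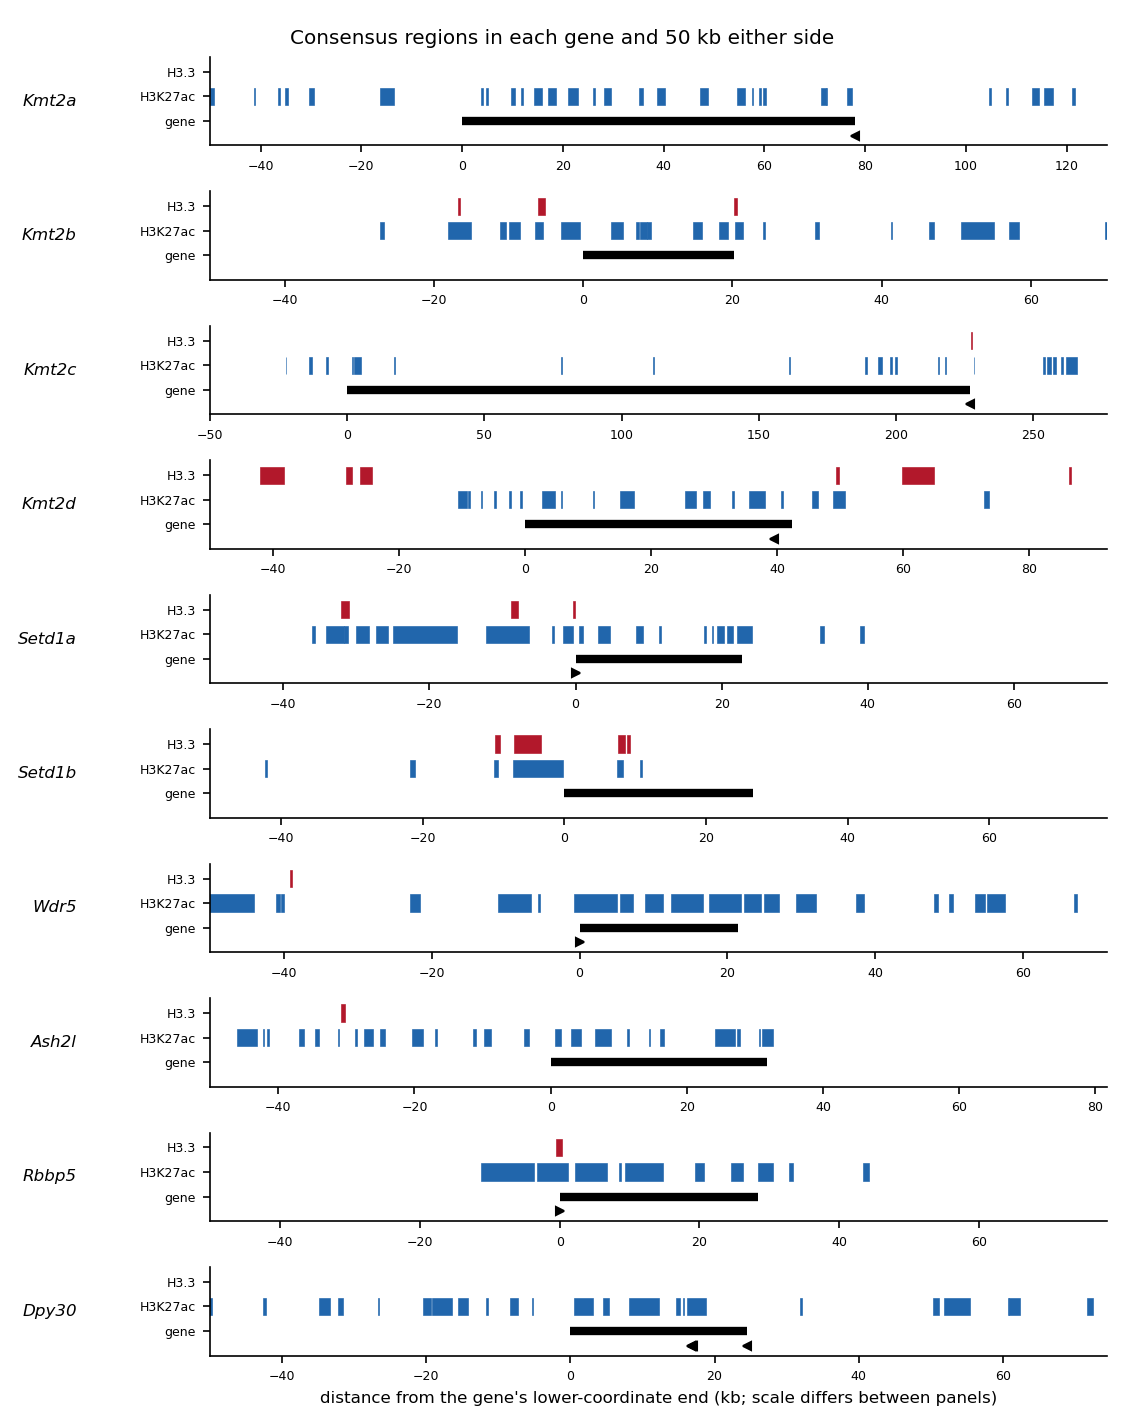
Map of the H3.3 (red) and H3K27ac (blue) regions in each gene (black bar) and 50 kb either side; the horizontal axis is distance in kb from the gene's lower-coordinate end, with its own scale in each panel, and arrowheads are RefSeq start sites where matched. H3K27ac regions are present in 10 of 10 gene bodies, with long empty stretches in Kmt2c and Setd1b, while Kmt2a and Dpy30 have no H3.3 region anywhere in the window.

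The windows held 192 H3K27ac regions and 20 H3.3 regions. Of the H3K27ac regions 18 lay at an end of the gene itself, 73 lay elsewhere in its body and 101 in the flanks. Of the H3.3 regions 4 lay at an end, 2 elsewhere in the body and 14 in the flanks. At least 1 H3K27ac region was present in 10 windows, against 73.2% for windows drawn the same way around all protein-coding genes, and at least 1 H3.3 region in 8, against 41.3%. Of the 20 H3.3 regions 11 touched an H3K27ac region, 55.0%, close to the 47.5% of all 5430 H3.3 regions on assembled chromosomes. By place, 3 of 4 at the ends touched one, 1 of 2 in the bodies and 7 of 14 in the flanks. The 4 H3.3 regions at the ends were short, from 265 to 839 bp with a median of 339 bp, against 486 bp for the widest such region over all genes with H3.3 at an end. The widest H3K27ac region at an end had a median of 2525 bp over the 9 genes with one, against 1388 bp over all genes with one. The region of 2525 bp, at Kmt2b, and the widest, 7059 bp at Setd1b, both lay outside the member and over a neighbouring gene.

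The share of the gene body covered by H3K27ac ordered the genes from Wdr5 at 82.3% down to Setd1b at 3.96%. The 4 shared core subunit genes were the 4 highest. Wdr5, whose product is the WD-repeat scaffold of the complexes, was followed by Rbbp5 at 52.0%, Dpy30 at 44.9% and Ash2l at 32.8%. Among the enzyme genes Kmt2b had 29.7%, Setd1a 27.9%, Kmt2d 24.6% and Kmt2a 22.1%, and these 4 neighbours in the order lay close together. Kmt2c at 3.99% and Setd1b at 3.96% stood apart from the rest. The median over the 10 was 28.8%, against 1.38% over genes of 20 kb or more and 6.10% over the 6339 of those with any H3K27ac in the body. The genes of 20 kb or more are not matched to the 10 for length. Their median length was 49210 bp, against 27454.5 bp for the 10, and the effect of length on the share was not tested. Medians were 48.4% for the shared core subunits and 23.4% for the enzymes. With 4 and 6 genes and no replicate values this difference was not tested.

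Among genes of 20 kb or more, 99.5% had a lower share than Wdr5, 96.3% a lower share than Rbbp5, 94.7% than Dpy30 and 91.1% than Ash2l. For the 4 middle enzyme genes the figure ran from 85.8% (Kmt2a) to 89.8% (Kmt2b). For Kmt2c and Setd1b it was 62.6% and 62.5%, so these 2 genes sat near the middle of the distribution. Per 10 kb of gene body the median number of H3K27ac regions was 2.39 for the shared core subunits and 2.28 for the enzymes, whereas regions inside the body away from the ends had median widths of 1586.5 and 744 bp. By gene, the median width of all regions in the body was 4358 bp at Wdr5, 3060.5 bp at Rbbp5 and 1718 bp at Dpy30, but 785.5 bp at Ash2l, below Kmt2a (839 bp), Setd1a (841 bp), Kmt2d (983 bp) and Kmt2b (1066.5 bp). The number per 10 kb was highest at Setd1a (3.96), which 99.8% of the long genes did not reach, and lowest at Kmt2c (0.528).

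**Figure D2:**
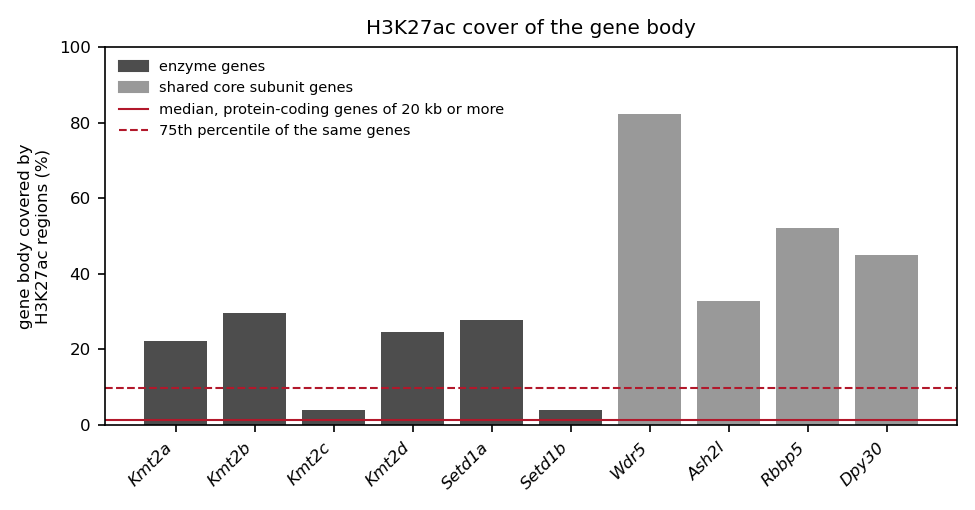
Bars give the percentage of each gene body covered by H3K27ac regions, dark for enzyme genes and light for shared core subunit genes; the solid line is the median (1.38%) and the dashed line the 75th percentile (9.81%) of protein-coding genes of 20 kb or more. The 4 light bars, from 32.8 to 82.3%, are above the 6 dark ones, and Kmt2c and Setd1b lie under the dashed line.

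Kmt2a and Kmt2b encode the enzymes that work with menin. Kmt2a (chromosome 9, 44803355 to 44881352, minus strand, 78.0 kb) held the most H3K27ac regions of any member, 19 in its body, spread along it. They measured at most 1824 bp with a median of 839 bp, and the longest stretch without one was 11.0 kb. With the gene divided into 4 equal parts from its start, these held 17.4, 27.3, 27.4 and 27.9% of the covered length. The region nearest the start site, 922 bp wide, began 581 bp downstream of it. It lies where the gene Gm39326 overlaps Kmt2a, and it alone put Kmt2a among the genes with H3K27ac at an end. The widest H3K27ac region of the window, 2773 bp, lay in the flank over Ift46. The H3.3 region nearest the start site was 84.0 kb upstream of it, and the window held none.

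Kmt2b (chromosome 7, 30568855 to 30589056, 20.2 kb) had both kinds of region at its higher-coordinate end. The annotated end fell in a gap of 866 bp between H3K27ac regions of 1287 bp and 1070 bp. An H3.3 region of 361 bp began 25 bp outside the gene in that gap, and 254 of its bases (70.4%) overlapped the outer H3K27ac region. The same H3.3 region lies within 1 kb of an end of Zbtb32, Gm32082 and Mir3569, so it cannot be assigned to Kmt2b alone. At the lower end an H3K27ac region of 2525 bp lay 433 bp outside the gene and over Igflr1, a receptor gene, and near U2af1l4. Inside the gene 6 H3K27ac regions had a median width of 1066.5 bp. The widest H3K27ac region of the window, 4437 bp, lay in Cox6b1, and the widest H3.3 region, 913 bp, over Psenen, a gamma-secretase subunit gene, and U2af1l4.

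The enhancer enzymes Kmt2c and Kmt2d also differed from each other. Kmt2c (chromosome 5, 25271795 to 25498855, minus strand, 227 kb) is the longest member. It had 12 H3K27ac regions, 9.07 kb in all, with a median width of 536 bp and a stretch of 60.5 kb without any. The cover lay toward the 2 ends of the gene, with 50.1% in the first of 4 equal parts, 34.7% in the last and 2.39% in the second. Within 1 kb of the start site there was H3.3 without H3K27ac. An H3.3 region of 317 bp lay 440 bp upstream of the start site, and the nearest H3K27ac region, 276 bp wide, lay 1438 bp upstream and did not touch it. Both regions lay toward the lncRNA gene 4831440E17Rik, whose end is within 1 kb of each.

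Kmt2d (chromosome 15, 98831669 to 98874077, minus strand, 42.4 kb) carried 9 H3K27ac regions in its body, the widest 2629 bp. The matched start site is 2872 bp inside the annotated end, and neither kind of region lay within 1 kb of it. The nearest were an H3K27ac region of 254 bp 1135 bp upstream and an H3.3 region 9.76 kb upstream. Its count as a gene with H3K27ac at an end rests on a region of 325 bp beyond the lower end, which also lies at the end of Prkag1, a subunit gene of the AMP-activated kinase. The Kmt2d window held the most H3.3 regions, 6, and none of them lay in Kmt2d. The widest, 5068 bp, lay inside Dhh, the gene of the Hedgehog ligand Desert hedgehog, and the next, 3757 bp, lay over Wnt1, the gene of a WNT ligand. Neither touched H3K27ac, and both Wnt1 and Ddn had H3.3 at an end without H3K27ac. An H3.3 region of 530 bp that overlapped Rhebl1, near an end of Rhebl1 and of Dhh, lay wholly inside H3K27ac.

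The genes of the main promoter trimethylases, Setd1a and Setd1b, differed in how H3.3 lay relative to the gene. Setd1a (chromosome 7, 127777389 to 127800122, plus strand, 22.7 kb) had its start site in a gap of 796 bp between H3K27ac regions of 1374 and 471 bp, the first of them also near an end of Orai3. The H3.3 region of 265 bp ended 91 bp before the start site and overlapped the upstream H3K27ac region by 68 bp, 25.7% of its length. Its capitals in the printed promoter thus stop before the start. Along the gene there were 9 H3K27ac regions, and the last of 4 equal parts held 46.9% of the cover, including part of a region of 1956 bp that continues over Hsd3b7. The flank toward the start held the widest H3K27ac region of this window, 8806 bp, inside Fbxl19, the gene of an F-box protein. Fbxl19 also held the 2 other H3.3 regions, of 1147 and 975 bp, and both touched H3K27ac.

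Setd1b (chromosome 5, 123142040 to 123168630, 26.6 kb) had the fewest H3K27ac regions in its window, 6. The widest measured 7059 bp and stopped 133 bp before the lower annotated end. It lay over the neighbouring gene Rhof and near an end of Rhof, so it cannot be assigned to Setd1b. It alone put Setd1b among the genes with H3K27ac at an end. It contained the whole of an H3.3 region of 3716 bp, also over Rhof. That was the widest H3.3 region that touched H3K27ac in any of the windows. H3.3 was also found in the body of Setd1b, in regions of 1033 and 364 bp. The first overlapped an H3K27ac region of 808 bp over 635 bp, and the second lay 659 bp from the nearest one. Setd1b and Rbbp5 were the only members with H3.3 in the gene body, and Setd1b was the only one with more than 1 such region. The remaining 15.7 kb up to the higher end held no H3K27ac.

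Among the shared core subunits Wdr5 was the most fully covered gene. Wdr5 (chromosome 2, 27515147 to 27536535, plus strand, 21.4 kb) had 5 H3K27ac regions in its body, and all 5 were wider than 1 kb. The widest, 5807 bp, began before the start site and covered it, and the longest stretch without H3K27ac was 1.68 kb. A further region of 2289 bp lay 837 bp beyond the far end, near Gm25541 and Gm13421. Shares of the cover were even along the gene, from 20.4 to 28.8% in each of 4 equal parts. No H3.3 region lay nearer than 39.0 kb to the start. That region, of 216 bp, was inside Brd3, a BET reader gene, which also held the widest H3K27ac region in any of the windows, 9197 bp.

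Rbbp5 (chromosome 1, 132477348 to 132505665, plus strand, 28.3 kb) was the only one of the 7 members with matched start sites to have H3.3 over one. Its H3.3 region of 839 bp lay wholly inside an H3K27ac region of 4445 bp, 2694 bp from the outer edge and 912 bp from the inner one. The lncRNA gene 6030442K20Rik lies on the other side of the start and shares both regions. Cover was densest near the start, with 74.8% of it in the part of the gene from the start to its midpoint, and the widest region in the body measured 5449 bp. An H3K27ac region of 7621 bp at Dstyk lay 3637 bp outside the gene. At the higher end a region of 2043 bp lay 126 bp outside the gene, over Tmem81.

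Ash2l (chromosome 8, 25816000 to 25847694, 31.7 kb), whose product binds with RBBP5 and stimulates the enzymes, had 10 H3K27ac regions, the widest 3053 bp. It had H3K27ac at both ends, including a region of 1522 bp across the higher end, which Kcnu1 shares, and one of 919 bp inside the lower end, near Star. Its window held 1 H3.3 region, of 478 bp, at the facing ends of Bag4 and Lsm1. That region did not touch H3K27ac and lay 30255 bp outside Ash2l.

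Dpy30 (chromosome 17, 74299474 to 74323944, minus strand, 24.5 kb), the smallest core subunit's gene, showed a difference between its start sites. The outer site, at the annotated end, had no H3K27ac region within 5.68 kb. The 3 inner sites, 7511 to 7733 bp inside, lay together under an H3K27ac region of 2663 bp. The stretch of 5676 bp from that region to the outer site was the longest without H3K27ac in the gene. At the other end of the gene lay a region of 2629 bp, which is why Dpy30 counted as having H3K27ac at an end. No H3.3 region lay within 204 kb of any Dpy30 start site, the largest such distance among the members.

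**Figure D3:**
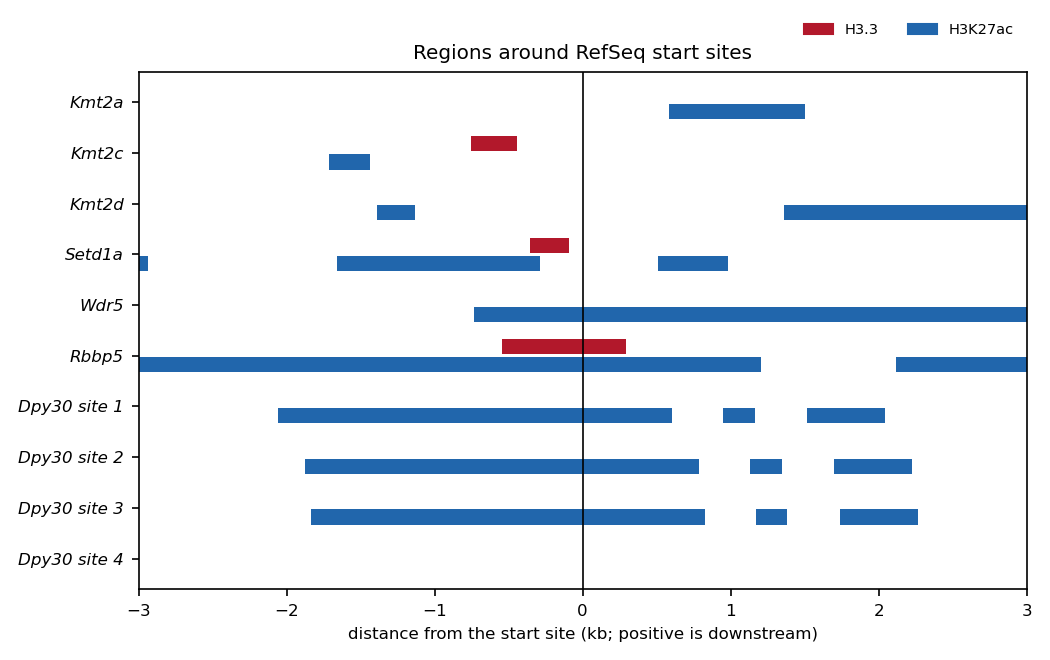
Regions within 3 kb of the 10 RefSeq start sites of 7 genes; the horizontal axis is distance in kb from the start site, positive downstream, with H3.3 in red and H3K27ac in blue. H3K27ac covers the start of Wdr5, Rbbp5 and the 3 inner sites of Dpy30, H3.3 covers that of Rbbp5, and the start of Setd1a lies in a gap of 796 bp between H3K27ac regions.

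Counted over start sites, H3K27ac covered 5 of 10, against 14.6% of the 32851 start sites of genes of all biotypes in the table, and lay within 1 kb of 7, against 28.2%. H3.3 covered 1, against 5.68%, and lay within 1 kb of 3, against 12.5%. The 3 inner Dpy30 sites share a single region and are not separate observations.

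The promoters themselves were mostly rich in CpG dinucleotides, whether covered or not. The median over the table was 7 CpG and 52.7% G+C per 300 bases. Kmt2c had 56 CpG, more than 99.8% of promoters, and 88.0% G+C. The inner Dpy30 promoters had 30 to 39 CpG, Kmt2a 36, Setd1a 35, Kmt2d 27 and Wdr5 22. Rbbp5, the promoter inside both kinds of region, had 16 CpG and 44.0% G+C, the lowest G+C of the matched promoters other than that of the outer Dpy30 site. That site, which lay under neither kind of region, had 1 CpG and 40.7% G+C. The letters GGGCGG, the GC box read by SP and KLF factors, were searched on both strands and occur in 35.7% of all promoters. They occurred 12 times in the Kmt2c promoter, 5 in Kmt2a, 4 in Kmt2d, 2 in Wdr5 and 1 time in an inner Dpy30 promoter. The letters CCAAT occurred only at the outer Dpy30 site, against 37.4% of all promoters. Another 6 short sequences were searched, those of ETS, NRF1, YY1, the E-box, the TATA box and the CRE. Of these 0 occurred in a member's promoter. Their shares of all promoters ran from 1.79% (CRE) to 13.6% (TATA box). A match is a stretch of letters and not a binding site.

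Other genes of H3K4 methylation had H3K27ac at an end in 17 of 24 cases and H3.3 in 7, all 7 together with H3K27ac; the shares over all genes are the 38.8 and 16.0% given above. Of 12 subunits that belong to particular complexes, 8 had H3K27ac and 3 had H3.3. The widest H3K27ac regions at an end were at Wdr82 (9699 bp), which recruits the SETD1 complexes, at Psip1 (5188 bp), the chromatin tether of the menin complexes, and at Paxip1 (1492 bp) and Men1 (1379 bp), the gene of menin itself. H3.3 lay at Pagr1a (229 bp), Hcfc1 (215 bp) and Men1 (213 bp). Cxxc1, Hcfc2, Ncoa6 and Bod1 had neither kind of region at an end, although 10 H3K27ac regions lay inside Hcfc2.

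Of 6 other genes, the methyltransferases Setd7, Smyd1, Smyd2, Smyd3 and Prdm9 and the KMT2 relative Kmt2e, 4 had H3K27ac and 2 had H3.3. The H3K27ac regions of Smyd3 and Prdm9 measured 911 and 314 bp. Kmt2e had 4750 bp of H3K27ac and 714 bp of H3.3 as its widest regions at an end, and Setd7 had 266 and 719 bp. Smyd1 and Smyd2 had neither. Of the 6 demethylases of H3K4, 5 had H3K27ac, widest at Kdm5a (3163 bp) and Kdm1a (3131 bp), the gene of LSD1, then Kdm5c (1498 bp) and Kdm5b (1265 bp). H3.3 lay at Kdm5a (766 bp) and Kdm1b (496 bp), and the Y-linked Kdm5d had neither. The median share of the body covered by H3K27ac was 10.5% over the particular subunits, 3.04% over the other methyltransferases with Kmt2e and 13.3% over the demethylases, against 28.8% over the 10 genes. The highest shares were 76.7% at Kdm5b and 68.2% at Kdm1a, between those of Wdr5 and Rbbp5, and 89.5% at Wdr82, above Wdr5.

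**Figure D4:**
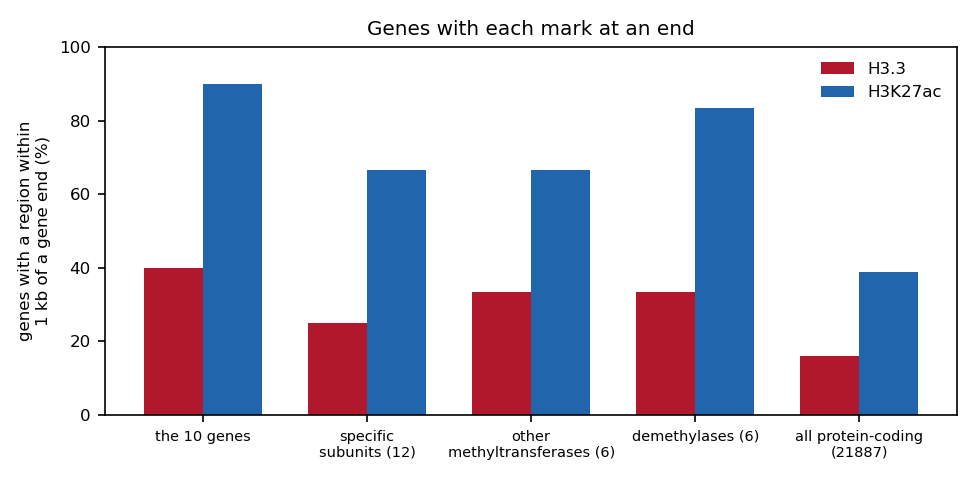
Bars give the percentage of genes with an H3.3 (red) or H3K27ac (blue) region within 1 kb of a gene end, for the 10 genes, 3 lists of other H3K4 genes with the number of genes in brackets, and all 21887 protein-coding genes. The 10 genes stand at 40.0 and 90.0% and all genes at 16.0 and 38.8%, and the lists have only 6 or 12 genes.

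The windows also held 43 protein-coding neighbours, of which 29 had H3K27ac and 15 had H3.3 at an end, so the neighbours too were above the shares of 38.8 and 16.0% over all genes. Of these 13 had both and 2 had H3.3 alone, Wnt1 and Ddn, the neighbours of Kmt2d. The neighbours are not separate observations, because some were counted through the same region. Psenen and U2af1l4 share an H3.3 region of 913 bp, for example, and Rhebl1 and Dhh share another of 530 bp. The H3.3 region of 361 bp at Zbtb32 is the same as that at the end of Kmt2b. Several regions at the ends of members also lay within 1 kb of an end of a neighbour, at Kmt2b, Kmt2c, Kmt2d, Setd1a, Setd1b, Ash2l, Rbbp5 and Wdr5, and those shared regions cannot be given to 1 gene. Others lay near no other gene's end, among them the H3.3 region at Setd1a and the H3K27ac region over the start of Wdr5. Those at the ends of Kmt2a and Dpy30 were near no other gene's end.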

How the data were processed

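The titles of the 28 CUT&RUN libraries gave the target and genotype of each. The values deposited by the authors are 2 BED lists of consensus regions on mm10, with no score and no value per library. Bowtie2, SAMtools, deepTools and MACS2 are named, without versions or roles, per the submitters' processing notes; how the consensus was formed is not given in the sources used here. Starts were raised by 1, and 16 H3.3 and 13 H3K27ac regions off the assembled chromosomes were left out. Genes came from the RefSeq table of GRCm38.p6, which gives no strand or exons, and start sites from the RefSeq promoter table. Overlap meant at least 1 bp. Counts, covered lengths and shares were computed with Python 3.11.15, pandas 2.3.3 and NumPy 2.4.6, and the overlap functions were tested on simulated data. No test was run. The comparison with genes of 20 kb or more was added after seeing the data. All 10 members were named, with neighbours holding the widest region of a window or sharing a region at an end, and, of 3 other lists, up to 4 genes with the widest H3K27ac or H3.3 region at an end and all with neither. The members and lists were chosen with earlier results of these data known.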

Additional observations from a re-analysis of the deposited data

How the results depend on the processing

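Of 33 recomputed counts and medians over the 10 genes, 23 stayed within 1.5 times the value reported and 10 did not. H3.3 at an end stayed at the same 4 genes with end windows of 500 bp and 2.5 kb and with 50% of the region required inside the window. With the wider 50% of each list it was left at 1 gene, Rbbp5, both kinds of region at an end at 1, H3.3 regions in the windows at 13, H3K27ac regions at 98 and H3.3 regions that touch H3K27ac at 6; by construction fewer regions enter, and the regions at Kmt2b, Kmt2c and Setd1a were shorter than the median. Under that setting Kmt2c kept 2.15% and Setd1b 0% of the body under H3K27ac, against 3.99 and 3.96%. H3K27ac at an end was found at 4 genes when 50% of the region had to lie inside the window, and at 5 when start sites were used, which exist for 7 genes. It was found at 6 genes with 500 bp, losing Kmt2a, Kmt2d and Dpy30, and at 10 with 2.5 kb. The shares over all protein-coding genes were not recomputed under these other settings. The counts under them therefore cannot be set against the 38.8 and 16.0% given above. With 10 kb flanks the windows held 11 H3.3 and 117 H3K27ac regions. By region centre 1 gene had H3.3 in its body, Setd1b. Depth is unknown, so the absence of a region does not show the absence of the mark, and consensus regions do not tell wildtype from mutant cells. No paired analysis was possible because the lists hold no value per library, and no replicate could be left out for the same reason.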
